A study of Homo sapiens with 6 samples.

Results

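Autophagy delivers cytoplasmic cargo to lysosomes inside a double membrane, the autophagosome. The ULK1 kinase complex starts the process, a lipid kinase complex built around Beclin 1 (BECN1) marks the membrane, and a conjugation machinery that includes ATG5 attaches ATG8-family proteins to it. Receptors such as p62 (SQSTM1) bind ubiquitinated cargo with one domain and the ATG8 proteins with another, and SQSTM1 also holds KEAP1, the inhibitor of the stress factor NRF2. Described here are 10 genes of this pathway, chosen by name: the receptors SQSTM1, NBR1, OPTN and TAX1BP1, the ATG8-family members MAP1LC3B, GABARAPL1 and GABARAPL2, and the core genes BECN1, ULK1 and ATG5. They are 10 of 27988 genes named in the files. A gene's level was the sum of TPM, a unit normalised for transcript length and library depth, over the transcripts that the assembly names for the gene (reference transcripts).

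RNA was sequenced from HaCaT cells, an immortalised line of human keratinocytes, in 3 libraries from cells given an siRNA against PSENEN and 3 from cells given a mismatch siRNA. PSENEN encodes a subunit of the membrane protease γ-secretase. All cells grew in high glucose medium with 10% fetal calf serum and were transfected with the reagent Lipofectamine at a density of 30 to 40%, with 100 pmol of the PSENEN siRNA; the labels give no amount for the mismatch siRNA. RNA was taken at 48 and 72 h, and the labels do not say which time was sequenced. The labels name a single siRNA against PSENEN and do not say that libraries came from separate cultures, so p-values measure only the spread between these libraries.

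PSENEN was at 1.75, 2.08 and 1.496 TPM in PSENEN siRNA libraries 1 to 3, against 6.58, 8.85 and 6.55 TPM in mismatch siRNA libraries 1 to 3. The log2 difference was -1.58 with a standard error of 0.18 (limma adjusted p = 0.0471). Estimated depth was 9.16 to 11.9 gigabases in PSENEN siRNA libraries and 11.5 to 15.6 gigabases in mismatch siRNA libraries. All 10 keratinocyte markers, keratins and adhesion genes among them, were above 1 TPM in every library, and their summed level was 3624 to 4383 TPM in PSENEN siRNA libraries and 3908 to 8416 TPM in mismatch siRNA libraries. The 6 fibroblast markers summed to 0.460 to 1.01 TPM in PSENEN siRNA libraries and 1.18 to 1.47 TPM in mismatch siRNA libraries, all from COL1A1, COL3A1 and DCN, while COL1A2, PDGFRB and LUM were not named in the files. The 5 leukocyte markers summed to 3.38 to 7.84 TPM in PSENEN siRNA libraries and 2.09 to 5.40 TPM in mismatch siRNA libraries, all from CD14 and CD68, while PTPRC, CD3E and LYZ were not named. The melanocyte and endothelial sums were at most 0.545 and 0.324 TPM in any library. Mitochondrial transcripts took 2.53 to 3.27% of TPM in PSENEN siRNA libraries and 2.54 to 2.71% in mismatch siRNA libraries, as a share of the full sum of the unit; their part in the results was not tested.

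SQSTM1 stood out among the 10 genes in level, so its sequences come first. In libraries 2 and 3 of both groups, 47.6 to 69.4% of its TPM lay in assembled transcripts that carry no reference name. In library 1 of either group the share was at most 0.527%. Such transcripts also held 92.1% of NBR1 TPM and 61.5% of TAX1BP1 TPM in single libraries, and 20.5 to 37.1% of ULK1 TPM in all 6. The SQSTM1 share lay nearly all in 1 transcript of 8 exons and 2007 to 2020 bases. It shared 6 of 7 introns with the reference transcript ENST00000389805, and its exon 3 began 2 bases later. The intron that ends there is in no GENCODE 29 transcript of SQSTM1. The junction of exons 2 and 3 in ENST00000389805 is shown because these 2 bases are the internal difference between the assembled and the reference transcript. It joins chr5:179823040-179823053 to chr5:179823858-179823873 (GRCh38, plus strand, GENCODE 29), and capitals mark the bases that the assembled transcript lacks.
SQSTM1 exon 2 to exon 3: aatctacattaaagAGaaaaaagagtgccg
The 3′ end of the assembled transcript was shifted by -823 bases from that of ENST00000389805, which makes it shorter. Its first base was within a window of 14 bases in all 4 libraries, from 5 bases before to 8 bases after the RefSeq start at 179820905. The SQSTM1 promoter from RefSeq (GRCh38.p14, chr5:179820655-179820954, plus strand, 250 bases before to 50 bases after that start) is shown with this window in capitals.
SQSTM1 promoter: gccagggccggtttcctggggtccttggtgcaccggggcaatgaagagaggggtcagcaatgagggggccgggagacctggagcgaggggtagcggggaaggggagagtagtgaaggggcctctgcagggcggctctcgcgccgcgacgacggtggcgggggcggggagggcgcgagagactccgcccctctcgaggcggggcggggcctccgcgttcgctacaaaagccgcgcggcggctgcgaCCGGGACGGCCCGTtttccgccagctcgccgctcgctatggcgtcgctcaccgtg
GC content in this promoter was 73%, against a median of 58.7% over 35116 RefSeq promoters of the same length. The 10 genes have 16 such promoters, with a GC content of 27.7 to 78.3%. They are not separate items: several genes have more than 1, and the OPTN windows overlap, so the same boxes count again there. The GC box GGGCGG, searched on both strands like the motifs that follow, was in 13 of the 16 promoters and in 45.0% of all promoters. The E-box CACGTG was in 0 of 16 and in 7.26% of all. The cAMP-response motif TGACGTCA was in 1 of 16, that of GABARAPL1, and in 1.85% of all. The antioxidant-response core TGACNNNGC was in 1 of 16, that of MAP1LC3B, and in 13.3% of all. A match is a description of letters in the window only, and the shares were not adjusted for GC content.

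SQSTM1 RNA (ENSG00000161011, chr5:179806398-179838078, plus strand, GRCh38 as are all positions here) was 1.91-fold higher in PSENEN siRNA libraries once the assembled transcripts were counted with the reference transcripts. From reference transcripts alone SQSTM1 was at 542, 223 and 204 TPM in PSENEN siRNA libraries 1 to 3, against 350, 166 and 99.4 TPM in mismatch siRNA libraries 1 to 3. Library 1 was the highest in each group on this measure, and the groups overlapped. In bulk RNA, a change in the share of cells with a transcript and a change in transcript per cell cannot be told apart. The log2 difference of TPM + 1, always given as PSENEN siRNA minus mismatch siRNA, was 0.70 with a standard error of 0.56 (limma adjusted p = 0.641).

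The 8-exon assembled transcript held 389 and 459 TPM in PSENEN siRNA libraries 2 and 3, against 147 and 188 TPM in mismatch siRNA libraries 2 and 3, and it was not assembled in library 1 of either group. Summed over reference and assembled transcripts, SQSTM1 was at 545, 612 and 666 TPM in PSENEN siRNA libraries 1 to 3, against 350, 316 and 287 TPM in mismatch siRNA libraries 1 to 3. Every PSENEN siRNA library was above every mismatch siRNA library. The means were 608 ± 60.9 TPM in PSENEN siRNA libraries and 318 ± 31.4 TPM in mismatch siRNA libraries (SD, n = 3 each; exact two-sided permutation p = 0.1, the smallest that 3 against 3 libraries allow). The log2 difference was 0.93 with a standard error of 0.12 and passed the test across all genes (limma adjusted p = 0.0395). The call rested on all 6 libraries: leaving out PSENEN siRNA library 1, 2 or 3 gave a limma adjusted p of 0.121, 0.138 and 0.143, and leaving out mismatch siRNA library 1, 2 or 3 gave 0.0754, 0.145 and 0.106, while the log2 difference stayed between 0.86 and 1.01. It was also lost with assembled bases in place of TPM (0.0544) and with a replicate block (0.243). Over all 10 alternatives on this sum the adjusted p ran from 0.0338 to 0.243.

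**Figure D1:**
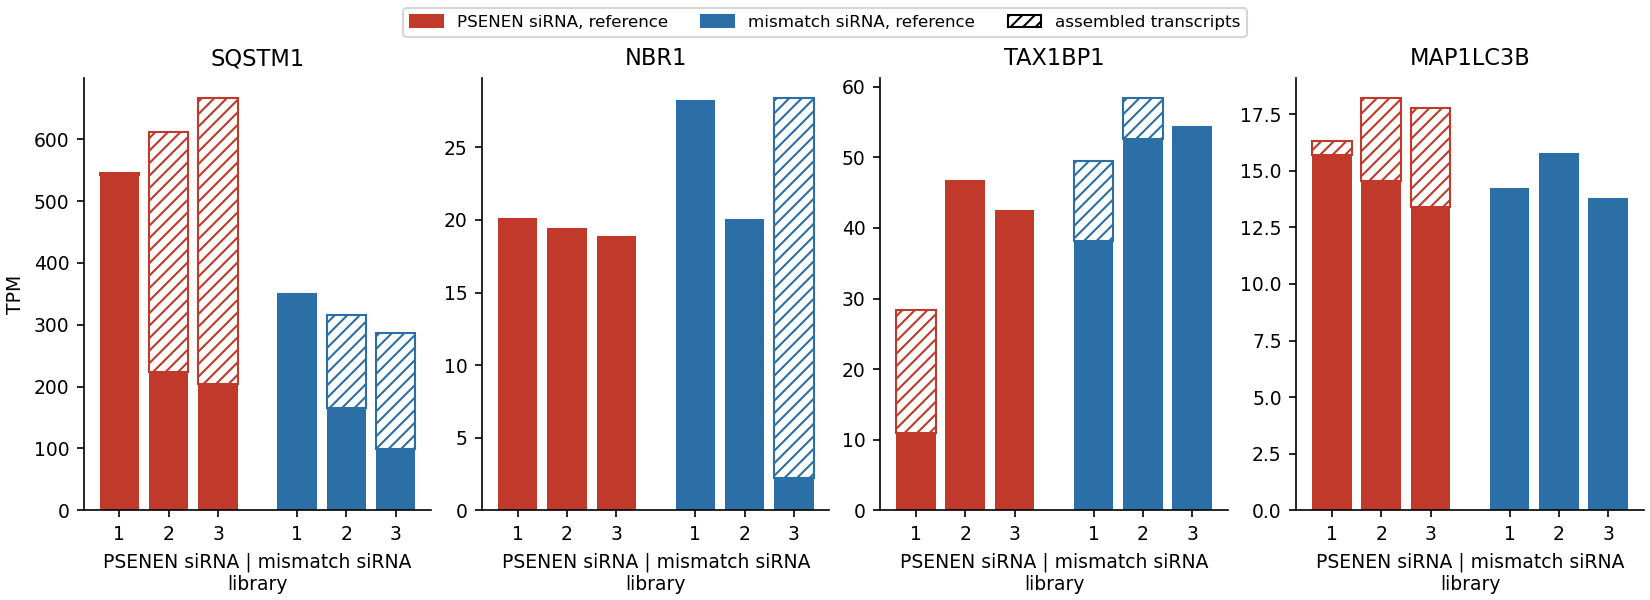
TPM of SQSTM1, NBR1, TAX1BP1 and MAP1LC3B in each library, with PSENEN siRNA libraries 1 to 3 left of mismatch siRNA libraries 1 to 3. Solid bars are reference transcripts and hatched bars are assembled transcripts without a reference name; the SQSTM1 totals are 545 to 666 TPM in PSENEN siRNA libraries and 287 to 350 TPM in mismatch siRNA libraries.

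Read coverage along the exons was summed over named transcripts and over unnamed transcripts placed in the gene by a shared intron. A read counts the same under either. Unnamed transcripts that could not be placed in this way were left out, so the measure still depends on each library's assembly. Over the exons of ENST00000389805, SQSTM1 coverage per gigabase was 157, 146 and 173 in PSENEN siRNA libraries 1 to 3, against 96.6, 74.5 and 70.3 in mismatch siRNA libraries 1 to 3. The ratio of means was 1.97, and the groups did not overlap (exact two-sided permutation p = 0.1). Coverage was higher without overlap at 6 of 8 exons, and the ratio of means was 1.85 to 2.20 at single exons. These exons were read in the same 6 libraries and are not separate items. No share over the exons of all genes was computed. By gene, 7.82% of 16424 tested genes were higher without overlap on the sum with assembled transcripts. At exons 1 and 2 the groups overlapped. Exon 2 was at 29.2, 101 and 124 in PSENEN siRNA libraries 1 to 3, against 20.5, 45.2 and 49.5 in mismatch siRNA libraries 1 to 3. Library 1 was the lowest of its group at exons 1 and 2 in both groups.

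**Figure D2:**
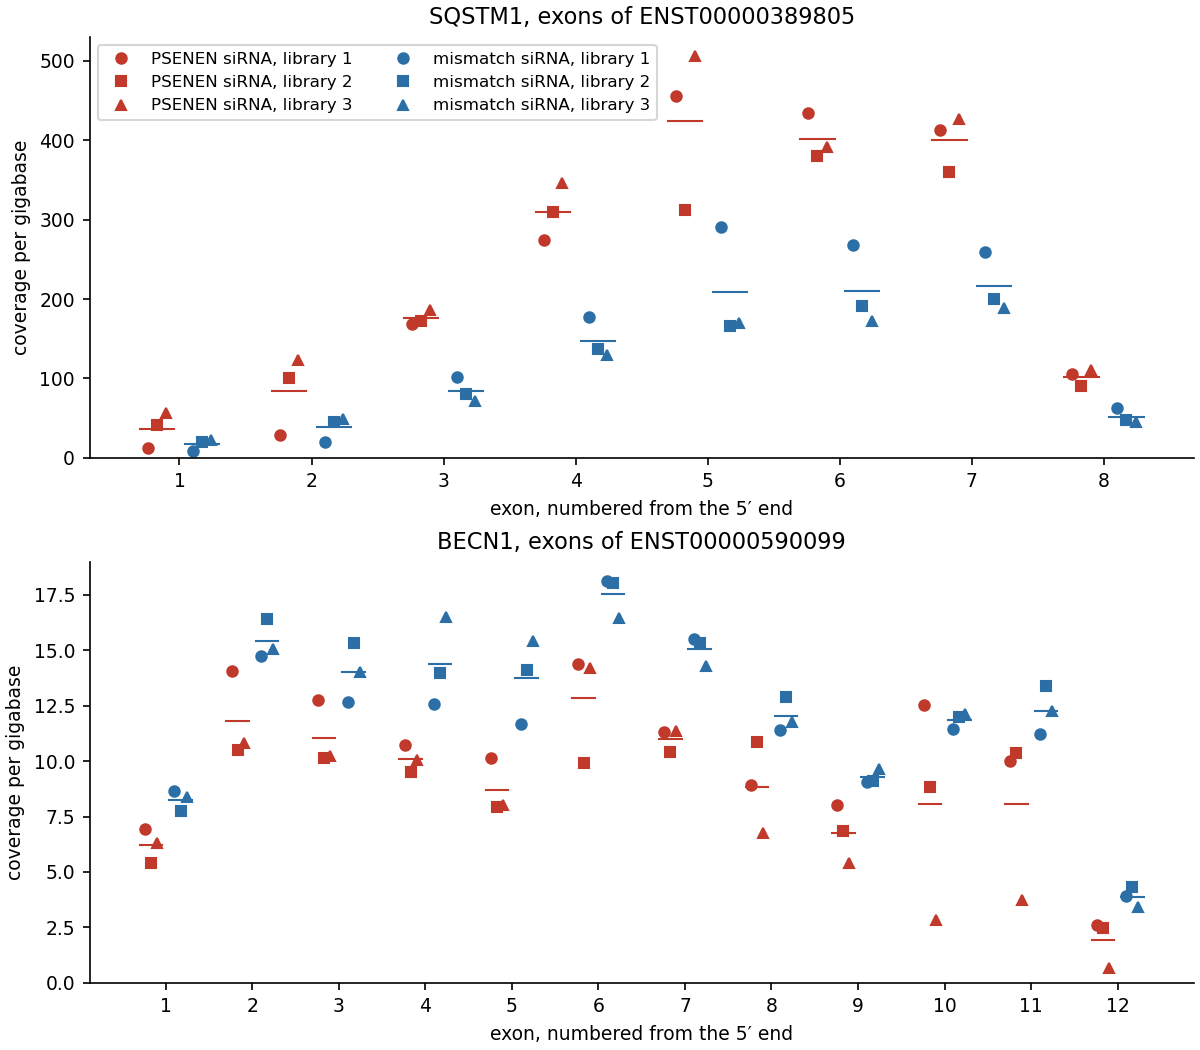
Coverage per gigabase of estimated depth at each exon of SQSTM1 (8 exons, top) and BECN1 (12 exons, bottom), numbered from the 5′ end. Red symbols are PSENEN siRNA libraries, left, blue symbols are mismatch siRNA libraries, right, and short lines are group means. PSENEN siRNA libraries are higher without overlap at 6 of 8 SQSTM1 exons and lower without overlap at 10 of 12 BECN1 exons. Exons of the same gene are not separate items.

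On the opposite strand, exons of MRNIP cover 20.7% of the exon bases of SQSTM1 (1582 bases), and exons of MGAT4B cover 1.37%. MRNIP was at 29.2, 23.6 and 10.2 TPM in PSENEN siRNA libraries and 23.0, 9.86 and 5.76 TPM in mismatch siRNA libraries, far below SQSTM1. MGAT4B was at 86.9, 89.2 and 82.4 TPM in PSENEN siRNA libraries, against 47.9, 56.2 and 54.8 TPM in mismatch siRNA libraries. The strandedness of the libraries is not given in the sources used here, so reads from these overlaps cannot be told apart. Of the 31-base words of SQSTM1 transcripts, 2.45% also occur in another gene.

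The genes most like SQSTM1 over the 6 libraries depended on the measure. Among 8292 protein-coding genes with a mean of at least 5 TPM, the highest Pearson correlations of log2(TPM + 1) with the reference-transcript level were those of WDR6 (0.997), H4C13 (0.966) and NRP1 (0.949). With assembled transcripts added they were those of PLIN2 (0.993), a coat protein of lipid droplets, NUDT3 (0.992) and the chemokine CXCL6 (0.990). PLIN2 was at 44.1, 53.9 and 54.9 TPM in PSENEN siRNA libraries, against 28.8, 25.0 and 25.3 TPM in mismatch siRNA libraries. These correlations describe 6 points that share the 2 groups.

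Across all 10 genes, no member passed the test on reference transcripts (limma; 1 member, BECN1, had an unadjusted p under 0.05), where 0.409% of 15647 tested genes passed and 13% had an unadjusted p under 0.05. All 10 members were tested. Their median log2 difference was 0.01, against -0.04 over all tested genes, with 5 positive and 5 negative. The groups did not overlap for 1 member, which was lower, against 21.9% of tested genes in either direction and 13.7% with the PSENEN siRNA group lower. With assembled transcripts added, 1 member passed and was higher, against 0.511% of 16424 tested genes passing and 0.164% passing as higher, and 3 had an unadjusted p under 0.05, against 14.6% of genes. Their median was then -0.06, against -0.05 over all tested genes, and the groups did not overlap for 4 members, 2 higher (7.82% of genes) and 2 lower (14.5% of genes), against 22.3% of genes in either direction.

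**Figure D3:**
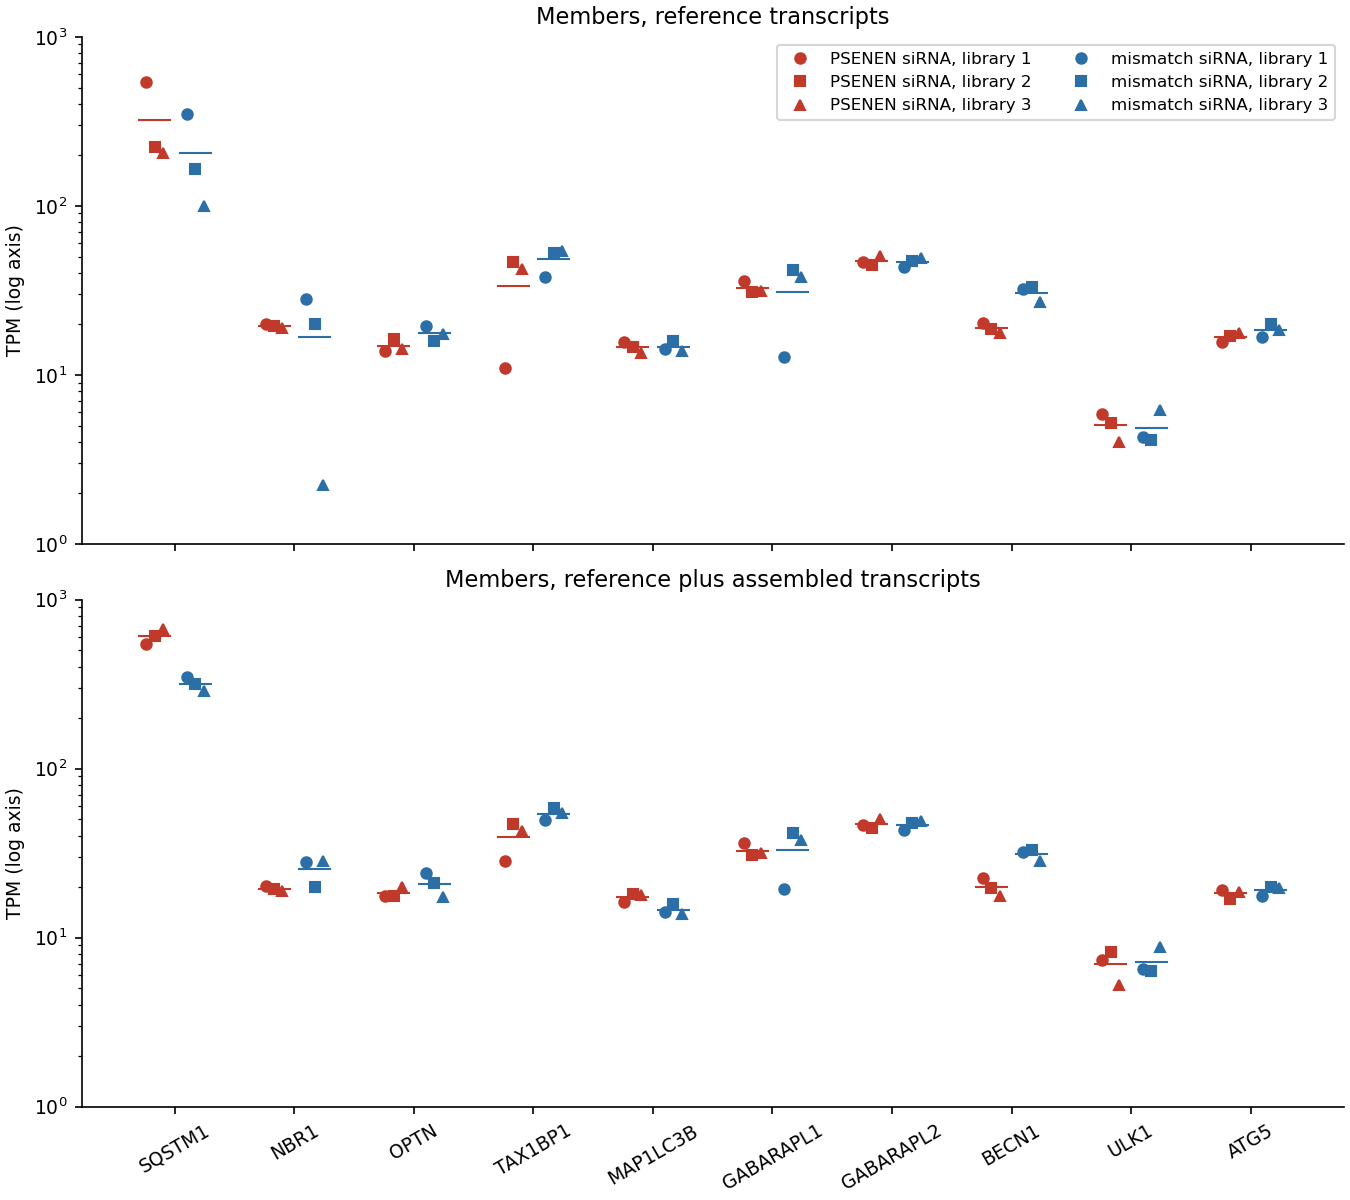
TPM on a log axis of the 10 genes in each library, from reference transcripts (top) and from reference plus assembled transcripts (bottom). Red symbols are PSENEN siRNA libraries, left, blue symbols are mismatch siRNA libraries, right, and short lines are group means; single low points of NBR1, TAX1BP1 and GABARAPL1 in the top panel lie closer to the other libraries in the bottom panel.

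SQSTM1 was the most abundant of the 10 on a scale per length, at a mean of 264 TPM over the 6 libraries from reference transcripts. GABARAPL2 followed at 46.8 TPM, then TAX1BP1 at 40.8, GABARAPL1 at 31.7, BECN1 at 24.8, NBR1 at 18.1, ATG5 at 17.5, OPTN at 16.2, MAP1LC3B at 14.6 and ULK1 at 4.93 TPM. The ranges over libraries were separate only between SQSTM1 and GABARAPL2 and between MAP1LC3B and ULK1. All other neighbours in this order overlapped, and with assembled transcripts added OPTN and ATG5 changed places.

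None of the other receptors passed the test on either measure. NBR1 (ENSG00000188554, chr17:43170481-43211689, plus strand), a ubiquitin-binding receptor related to SQSTM1, was at 20.1, 19.4 and 18.9 TPM in PSENEN siRNA libraries 1 to 3, against 28.2, 19.99 and 2.24 TPM in mismatch siRNA libraries 1 to 3 from reference transcripts. Mismatch siRNA library 3 stood far below the rest, and there 92.1% of NBR1 TPM lay in an assembled transcript that shares 19 of 20 introns with ENST00000341165. With that transcript added, this library was at 28.4 TPM and the log2 difference was -0.36 (limma adjusted p = 0.366), in place of 0.70 (adjusted p = 0.744). On both measures the groups overlapped.

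TAX1BP1 (ENSG00000106052, chr7:27739331-27844564, plus strand), a receptor that also acts in innate immune signalling, was at 10.95, 46.7 and 42.4 TPM in PSENEN siRNA libraries 1 to 3, against 38.1, 52.6 and 54.3 TPM in mismatch siRNA libraries 1 to 3 from reference transcripts. In PSENEN siRNA library 1, 61.5% of its TPM was in an assembled transcript. With assembled transcripts TAX1BP1 was at 28.4, 46.7 and 42.4 TPM in PSENEN siRNA libraries, against 49.5, 58.4 and 54.3 TPM in mismatch siRNA libraries. The groups then did not overlap, with a log2 difference of -0.48 and a standard error of 0.19 (limma adjusted p = 0.325; unadjusted p = 0.0435). Exon coverage per gigabase was 14.8, 17.3 and 15.4 in PSENEN siRNA libraries, against 19.1, 19.8 and 17.8 in mismatch siRNA libraries, a ratio of means of 0.837. OPTN (ENSG00000123240, chr10:13099449-13138308, plus strand), a receptor known for the clearance of damaged mitochondria, was at 14.8 ± 1.26 TPM in PSENEN siRNA libraries and 17.6 ± 1.76 TPM in mismatch siRNA libraries (SD, n = 3 each; log2 difference -0.24, limma adjusted p = 0.495), and the groups overlapped.

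**Figure D4:**
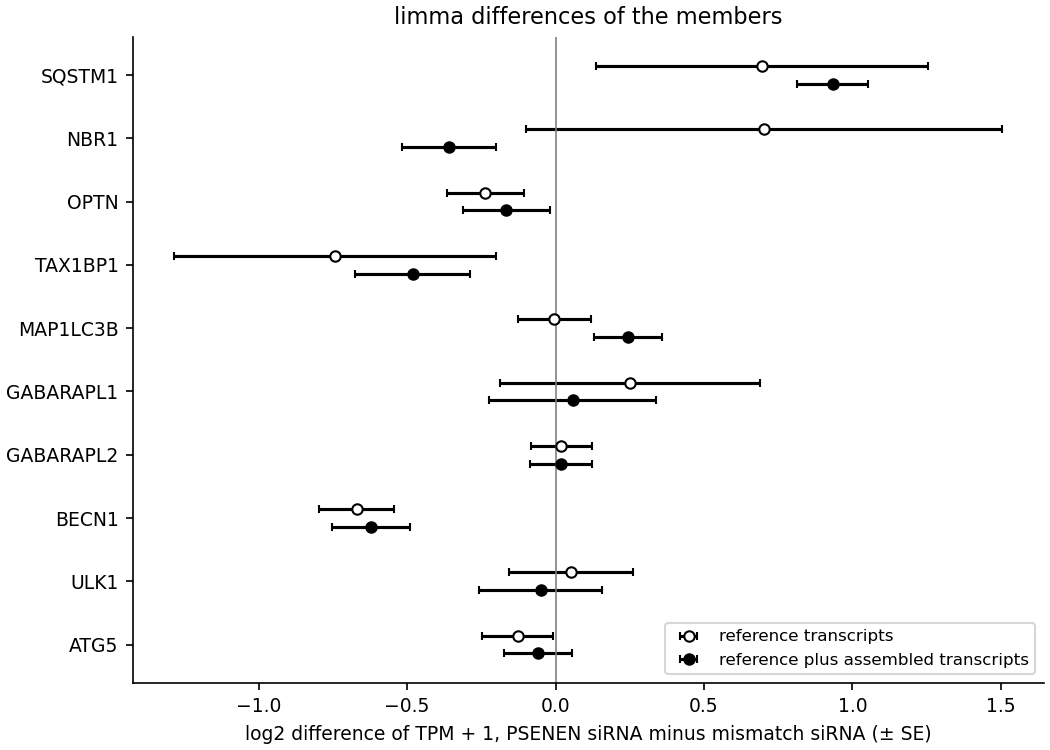
Log2 difference of TPM + 1, PSENEN siRNA minus mismatch siRNA, for each of the 10 genes, with bars of 1 standard error from limma. Open points are reference transcripts and filled points are reference plus assembled transcripts; for NBR1 the point is at 0.70 on the first measure and -0.36 on the second.

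The ATG8-family genes encode the small proteins that are coupled to the autophagosome membrane and that receptors bind. None of the 3 passed the test on either measure. MAP1LC3B (ENSG00000140941, chr16:87383995-87404779, plus strand), which encodes LC3B, was at 15.7, 14.5 and 13.4 TPM in PSENEN siRNA libraries 1 to 3, against 14.2, 15.7 and 13.8 TPM in mismatch siRNA libraries 1 to 3 from reference transcripts. The groups overlapped, with a log2 difference of -0.0037 (limma adjusted p = 0.993). Assembled transcripts of MAP1LC3B occurred in PSENEN siRNA libraries only. With them it was at 16.3, 18.2 and 17.8 TPM in PSENEN siRNA libraries, and the groups no longer overlapped (log2 difference 0.24, limma adjusted p = 0.395). The separation rests on 0.603 TPM in PSENEN siRNA library 1, held in a 2-exon transcript of 471 bases. Without it this library was at 15.69 TPM, below mismatch siRNA library 2 at 15.74 TPM. The assembled transcripts differed in structure between the PSENEN siRNA libraries. Exon coverage per gigabase was 5.82, 6.24 and 6.26 in PSENEN siRNA libraries, against 5.27, 4.78 and 4.97 in mismatch siRNA libraries, a ratio of means of 1.22. At exon 4 coverage was higher without overlap, with a ratio of means of 1.24. At exons 1 to 3 the groups overlapped, with ratios of 1.04 to 1.06. Of the 31-base words of MAP1LC3B, 5.92% also occur in MAP1LC3B2, which is not named in the files and so has no level here.

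GABARAPL1 (ENSG00000139112, chr12:10212458-10223130, plus strand) was at 36.1, 30.7 and 31.5 TPM in PSENEN siRNA libraries 1 to 3, against 12.7, 41.8 and 37.7 TPM in mismatch siRNA libraries 1 to 3 from reference transcripts. Mismatch siRNA library 1 was the low one, and at 19.4 TPM it was still the lowest with assembled transcripts added. The log2 difference was 0.25 (limma adjusted p = 0.836), and without mismatch siRNA library 1 it was -0.28. GABARAPL2 (ENSG00000034713, chr16:75566351-75577881, plus strand) had no assembled transcripts and varied least, at 46.3, 44.5 and 50.6 TPM in PSENEN siRNA libraries, against 43.3, 47.3 and 48.9 TPM in mismatch siRNA libraries. Its log2 difference was 0.02 with a standard error of 0.10 (limma adjusted p = 0.954). A single transcript, ENST00000037243, held 94.5 to 98.7% of its TPM.

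BECN1 (ENSG00000126581, chr17:42810134-42833350, minus strand) was the core gene with separate groups. It was at 20.2, 18.7 and 17.7 TPM in PSENEN siRNA libraries 1 to 3, against 32.1, 33.1 and 26.8 TPM in mismatch siRNA libraries 1 to 3. All PSENEN siRNA libraries lay below all mismatch siRNA libraries, with means of 18.8 ± 1.29 TPM in PSENEN siRNA libraries and 30.7 ± 3.37 TPM in mismatch siRNA libraries (SD, n = 3 each; exact two-sided permutation p = 0.1). The log2 difference was -0.67 with a standard error of 0.13 and did not pass the test across all genes (limma adjusted p = 0.106, from 0.0815 to 0.367 over the alternatives). With assembled transcripts added it was -0.62 (adjusted p = 0.115).

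Exon coverage of BECN1 was lower along most of its length. Per gigabase it was 7.69, 6.70 and 5.45 in PSENEN siRNA libraries, against 9.36, 10.1 and 9.44 in mismatch siRNA libraries, a ratio of means of 0.687. At 10 of 12 exons coverage was lower without overlap. Here too the exons are not separate items, and no share over the exons of all genes was computed. By gene, 14.5% of 16424 tested genes were lower without overlap on the sum with assembled transcripts. The leading transcript ENST00000590099 was at 14.1, 9.33 and 8.39 TPM in PSENEN siRNA libraries, against 16.7, 15.4 and 16.2 TPM in mismatch siRNA libraries (limma adjusted p = 0.482), and its mean share of BECN1 TPM was 52.3% with the PSENEN siRNA and 51.8% with the mismatch siRNA. Of its 17 named transcripts, 2 were lower without overlap, this one and ENST00000361523. Its low-level retained-intron transcripts had overlapping groups and went both ways. ENST00000590185, ENST00000589493 and ENST00000589492 had higher means with the PSENEN siRNA, by 1.78-, 1.66- and 1.40-fold. ENST00000593112 was at 1.00-fold, and ENST00000591307, ENST00000585515 and ENST00000543382 were lower, at 0.909-, 0.728- and 0.407-fold. On the opposite strand, exons of PSME3 cover 4.68% of the exon bases of BECN1, and PSME3 was at 80.3, 58.1 and 60.5 TPM in PSENEN siRNA libraries and 75.6, 84.5 and 51.1 TPM in mismatch siRNA libraries.

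ULK1 (ENSG00000177169, chr12:131894651-131923167, plus strand), the kinase that starts autophagy, was low, at 5.87, 5.20 and 4.02 TPM in PSENEN siRNA libraries 1 to 3, against 4.27, 4.09 and 6.15 TPM in mismatch siRNA libraries 1 to 3. The groups overlapped, and the log2 difference was 0.05 from reference transcripts and -0.05 with assembled transcripts added (limma adjusted p = 0.940 and 0.936). ATG5 (ENSG00000057663, chr6:106045423-106325791, minus strand), part of the complex that attaches ATG8 proteins to lipid, was at 15.6, 16.9 and 17.6 TPM in PSENEN siRNA libraries, against 16.8, 19.96 and 18.4 TPM in mismatch siRNA libraries. Its log2 difference was -0.13 (limma adjusted p = 0.685), and the groups overlapped.

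At the level of single transcripts, 83 transcripts of the 10 genes were named and 24 were tested. None passed the test (limma; 2 had an unadjusted p under 0.05, both of BECN1), against 0.37% of 26204 tested transcripts, and 9.48% of them had an unadjusted p under 0.05. The leading transcript was the same in all 6 libraries for OPTN, MAP1LC3B, GABARAPL2, BECN1 and ATG5. It differed between libraries for SQSTM1, NBR1, TAX1BP1, GABARAPL1 and ULK1. The share of SQSTM1 TPM in ENST00000389805 ran from 13.1 to 55.4%, and that of NBR1 TPM in ENST00000590996 from 2.55 to 96.3%. For GABARAPL1, ENST00000266458 held 0.1204% in mismatch siRNA library 1 and up to 98.9% elsewhere.

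The 3′ UTR of SQSTM1, GABARAPL1 and BECN1 holds the 7-base word TGGTTCT, which is also in all 3 annotated transcripts of PSENEN. That is 3 of 10 members, against 21.0% of 10687 tested protein-coding genes with an annotated 3′ UTR. These shares were not adjusted for the length of the 3′ UTR. With assembled transcripts added, the log2 differences of SQSTM1, GABARAPL1 and BECN1 were 0.93, 0.06 and -0.62. The word was chosen with earlier results of these data known, the sequence of the siRNA was not used here, and its part in the levels was not tested.

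Among 78 other autophagy genes, 70 were tested and 1 passed. ATG3, the enzyme that transfers ATG8 proteins to lipid, was at 28.2, 25.7 and 27.4 TPM in PSENEN siRNA libraries 1 to 3, against 49.7, 49.3 and 45.3 TPM in mismatch siRNA libraries 1 to 3, and all its TPM was in reference transcripts. Its groups did not overlap, and its log2 difference was -0.80 with a standard error of 0.10 (limma adjusted p = 0.0471, from 0.0395 to 0.349 over the alternatives). Without any 1 library the adjusted p was 0.116 to 0.172. The median over the 70 tested genes was -0.08, against -0.04 over all genes, with 27 positive and 43 negative. Over all 15647 genes tested, 7106 were positive and 8541 negative. On the sum with assembled transcripts, 71 of the pathway genes were tested, 29 positive and 42 negative, with a median of -0.04 against -0.05 over all genes. Lower genes passing the test were 0.281% of all tested genes.

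By role, none of 6 tested initiation genes passed and all 6 were negative, with a median of -0.31. With assembled transcripts added, 7 were tested, of which 3 were positive and 4 negative, with a median of -0.15. ATG13 and RB1CC1, subunits of the ULK1 complex, differed by -0.42 (limma adjusted p = 0.363) and -0.32 (0.258). On that sum ATG13 differed by 0.09. Of 13 tested genes of the lipid kinase complex, phosphoinositide binding and early membrane supply none passed. WIPI2, which binds phosphoinositide, differed by 0.10, and VMP1, a membrane protein of the endoplasmic reticulum, by -0.22. On the sum with assembled transcripts VMP1 was at 96.5, 99.4 and 85.1 TPM in PSENEN siRNA libraries, against 131.5, 108 and 110.4 TPM in mismatch siRNA libraries. These groups did not overlap, and the log2 difference of -0.31 did not pass (limma adjusted p = 0.296, unadjusted p = 0.0343). Of 10 conjugation genes ATG3 passed and 9 were negative, with a median of -0.24, against 8 negative and a median of -0.17 with assembled transcripts added. GABARAP, the only other ATG8-family gene tested, was at 44.7, 61.7 and 58.9 TPM in PSENEN siRNA libraries, against 94.7, 92.1 and 63.6 TPM in mismatch siRNA libraries. Its groups did not overlap, and its log2 difference of -0.58 did not pass (limma adjusted p = 0.316).

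None of 16 further receptors passed, and the ferritin receptor NCOA4 and the endoplasmic reticulum receptor RTN3 differed by 0.02 and -0.19. None of 13 fusion genes passed, and RAB7A, a small GTPase of late endosomes, differed by -0.03. VAMP8, a fusion SNARE, differed by 1.18 from reference transcripts and by 0.03 with assembled transcripts added. None of 11 upstream genes passed, and the kinases MTOR and PRKAA1 differed by 0.14 and -0.12.

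**Figure D5:**
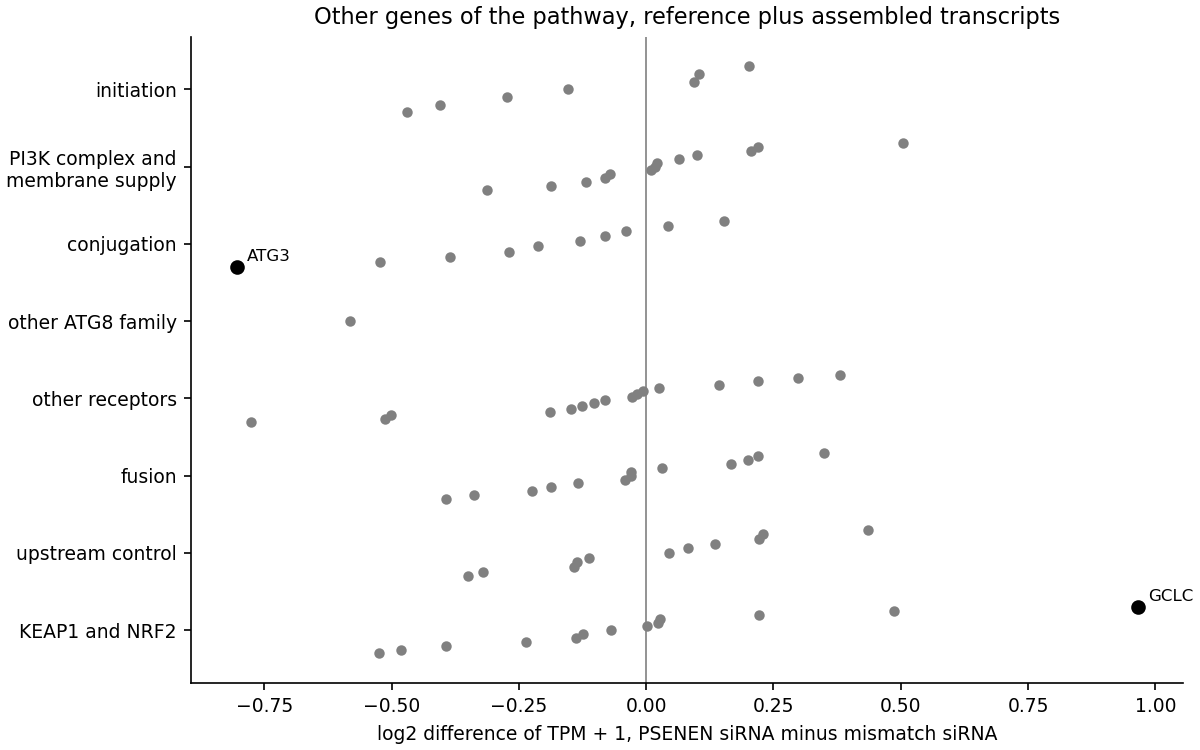
Log2 difference of TPM + 1, PSENEN siRNA minus mismatch siRNA, from reference plus assembled transcripts, for tested genes of the pathway other than the 10 members, grouped by role. Each point is a gene; black points with names, ATG3 and GCLC, passed an adjusted p of 0.05.

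Because SQSTM1 binds KEAP1, 13 genes of the KEAP1 and NRF2 axis were listed too. None passed on reference transcripts (limma; 2 higher and 2 lower had an unadjusted p under 0.05), and the median was -0.13. The ferritin chains FTL and FTH1 differed by 0.42 (limma adjusted p = 0.104) and 2.66 (0.638). For FTH1 the value rests on mismatch siRNA library 1, where reference transcripts hold 12.5 TPM: without that library the difference was 0.03, and with assembled transcripts added it was 0.0022. With assembled transcripts GCLC, the catalytic subunit of the enzyme that starts glutathione synthesis, was higher, at 84.5, 87.5 and 96.5 TPM in PSENEN siRNA libraries, against 45.8, 48.8 and 41.4 TPM in mismatch siRNA libraries (log2 difference 0.97, limma adjusted p = 0.0313; 0.0506 from reference transcripts). NQO1, another NRF2 target, was at 39.4, 39.3 and 41.1 TPM in PSENEN siRNA libraries, against 59.1, 55.8 and 58.9 TPM in mismatch siRNA libraries on that sum (log2 difference -0.52, limma adjusted p = 0.0676). In reference transcripts mismatch siRNA library 2 held 17.8 TPM of NQO1, the groups overlapped, and the log2 difference was 0.0081 (limma adjusted p = 0.996). GCLC and NQO1 were named after their values were seen.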

How the data were processed

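The authors deposited 1 StringTie assembly per library, per the file headers, with the TPM, FPKM and coverage of each transcript and no counts. The aligner behind them and the StringTie version are not given in the sources consulted. The submitters' processing notes list Bowtie 0.12.2 and mouse builds, which do not match the human files. Of 92476 reference transcripts named, 92263 were in GENCODE 29, and 98.4% of these had the same GRCh38 position.

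TPM was summed per gene and library over reference transcripts (66.4 to 68.6% of TPM). As an alternative, unnamed assembled transcripts that share an intron with the gene (5.37 to 6.80%) were added. Genes reaching 1 TPM in 3 or more libraries were tested with limma 3.58.1 in R 4.3.3 on log2(TPM + 1), with an intensity trend and a single term for group, which leaves 4 residual degrees of freedom. A gene was called under an adjusted p of 0.05 (Benjamini-Hochberg, over all tested genes). Differences on this scale understate the fold change of low genes. Single values were compared by exact two-sided permutation tests. Depth was estimated as coverage over FPKM, and exon coverage is coverage summed over transcripts per gigabase. Depth in reads is unknown, so no counting intervals are given. Alternatives were other pseudocounts, filters, scalings and units, a replicate block and each library left out.

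The 10 genes and all lists were chosen with earlier results of these data known. Named from each list were its called genes or else its 2 most abundant tested genes. The fits were also run on simulated data with known differences. The outcome of that run is not given here and does not bear on single calls. Python 3.11.15, pandas 2.3.3, NumPy 2.4.6, SciPy 1.17.1 and matplotlib 3.10.9 were used for all else. Promoters are RefSeq's (GRCh38.p14).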

Additional observations from a re-analysis of the deposited data

Results flagged for a closer look

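MAP1LC3B had signal in unnamed assembled transcripts, which the sum over reference transcripts does not use, in PSENEN siRNA libraries only. These held 0.603, 3.67 and 4.40 TPM in PSENEN siRNA libraries 1 to 3, and none was assembled in the 3 mismatch siRNA libraries. Each library has its own assembly, so a transcript that was not assembled is not a measured absence. They made up 3.70, 20.2 and 24.8% of MAP1LC3B TPM in PSENEN siRNA libraries. The difference was not tested.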

How the results depend on the processing

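No member passed under any alternative on reference transcripts. With assembled transcripts added, 1 member passed (SQSTM1, 0.93), also after quantile normalization (1 member, 0.96) and median-of-ratios scaling (1 member, 1.00). Of the other autophagy genes, 0 passed with a pseudocount of 0.1, median-of-ratios scaling, quantile normalization, a fit without trend, a replicate block on either measure or any library left out on either measure. All genes passing were 64, against 28 with a pseudocount of 0.1, 142 with assembled bases over both kinds of transcript, 7 to 16 with 1 library left out, and 9 to 12 with 1 library left out and assembled transcripts added. Over all 15647 genes tested on reference transcripts, equal replicate numbers did not deviate together (r = -0.049, 0.000065 and -0.014). These values do not describe single genes. The reference-transcript level of SQSTM1 fell from library 1 to library 3 in both groups. Its sum with assembled transcripts rose in that order in PSENEN siRNA libraries and fell in mismatch siRNA libraries. The replicate block left 1 gene on reference transcripts and 6 with assembled transcripts added.

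These log2 differences changed sign, and the cause was not tested. NBR1 was at -0.36 with assembled transcripts added (-0.36 with the block, -0.30 after quantile normalization, -0.30 after median-of-ratios scaling, -0.33 with assembled bases), and at -0.39 in exon coverage. MAP1LC3B was at 0.042, 0.048, 0.058 and 0.16 with median-of-ratios scaling, quantile normalization, FPKM and assembled bases. It was at 0.24, 0.30, 0.30, 0.41 and 0.24 with assembled transcripts added (alone, after quantile normalization, after median-of-ratios scaling, with assembled bases, with the block), and at 0.29 in exon coverage. ULK1 was at -0.051 with assembled transcripts added, with and without the block, and ATG13 at 0.095. RAB7A was at 0.019, 0.023, 0.042 and 0.054 with median-of-ratios scaling, quantile normalization, FPKM and assembled bases. With 1 library left out, the differences ran from -0.28 to 1.31 for NBR1, -0.057 to 0.051 for MAP1LC3B, -0.28 to 0.55 for GABARAPL1, -0.032 to 0.058 for GABARAPL2, -0.049 to 0.21 for ULK1, -0.053 to 0.16 for NCOA4, -0.079 to 0.0030 for RAB7A, -0.38 to 0.040 for VMP1 and -0.015 to 0.24 for WIPI2. With assembled transcripts added as well, they ran from -0.52 to -0.28 for NBR1, 0.21 to 0.30 for MAP1LC3B, -0.28 to 0.26 for GABARAPL1 and -0.17 to 0.12 for ULK1.

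The alternatives that combine assembled transcripts with another change, and exon coverage, were chosen after seeing the data. The PSENEN difference kept its sign under all alternatives run, and its adjusted p was 0.110 to 0.155 with 1 library left out and 0.306 with the block. With 3 libraries a group and no read counts, the precision for genes at the level of ULK1 is limited.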
